A study of Mus musculus with 6 samples.

Results

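Interferon-stimulated genes were followed in natural killer (NK) cells of the mouse thymus, in wild-type mice and in mice labelled as knock-outs of the transcription factor gene Tcf7. The set held 34 listed genes, and all 34 were found by gene symbol among the 26332 genes of the deposited count table. All 34 passed the filter on low counts and were tested. The list names known interferon-induced genes by symbol, and it was drawn up with earlier results of these data known.

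Interferons are secreted proteins that warn cells of infection. Type I interferons bind the receptor chains IFNAR1 and IFNAR2, and the kinases JAK1 and TYK2 then activate STAT proteins such as STAT2, which join IRF9 to bind a DNA element called the interferon-stimulated response element (ISRE). Interferon gamma, which NK cells secrete, acts through IFNGR1, IFNGR2, JAK1 and JAK2 and a separate element called GAS. The induced genes block viral entry, RNA replication and translation, mark proteins with ISG15, or feed back on the pathway.

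RNA was sequenced from cells of individual C57BL/6 mice, 4 wild type (WT) and 2 labelled as Tcf7 knock-out (KO). The cells were sorted as TCRbeta-CD3-CD8-CD1dtetramer-NK1.1+NKp46+, a gate meant to leave out T cells and NKT cells. The labels give WT 1, WT 3 and KO 1 as male mice and the other 3 as female. Neither the mutant allele nor the age of the mice is given in the sources used here, and no interferon or other treatment is named in the labels. Tcf7 encodes TCF-1, a factor of T cell and innate lymphoid cell development.

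Total counts lay between 16418910 and 31155303 per library. Levels are TMM-scaled CPM, read counts relative to library size. A fold change is the log2 of KO over WT, so that positive values mean higher in KO, as fitted by edgeR's quasi-likelihood test with sex as a term. Genes past an adjusted p of 0.05 (Benjamini-Hochberg over 13652 genes) are described as called, and the verbs rose and fell are kept for them. Tcf7 itself was at 811 to 947 CPM in WT and at 268 and 452 CPM in KO, so transcript was reduced and not absent. Of the genes of the sort markers, Ncr1, the gene of NKp46, was at 739.8 to 1037 CPM in all 6 libraries. Klrb1c, the gene of NK1.1, fell, from 1555 to 1705 CPM in WT to 1270 and 1084 CPM in KO 1 and KO 2.

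The whole set lay higher in KO. Of the 34 genes, 17 rose, none fell and 17 were not called. DESeq2 and limma voom also called none lower, and no fold change was below 0. In the same test 8.13% of all tested genes were called higher and 5.58% lower. Every one of the 34 fold changes was above 0, against 51.7% of all tested genes. As the list was drawn up with results known, these shares describe it and do not test it. The median of the set was 0.70 and that of all tested genes 0.017. For 31 of the 34 genes both KO libraries were above all 4 WT libraries, which held for 20.5% of all tested genes. Zbp1, Rsad2 and Ifi47 were the 3 whose groups overlapped. Most rises were small. Of the 17 called genes, 11 rose by less than 2-fold and 6 by at least 2-fold (5.87% of all tested genes). The largest rises were those of Oas2 and Xaf1, each by more than 4-fold.

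**Figure D1:**
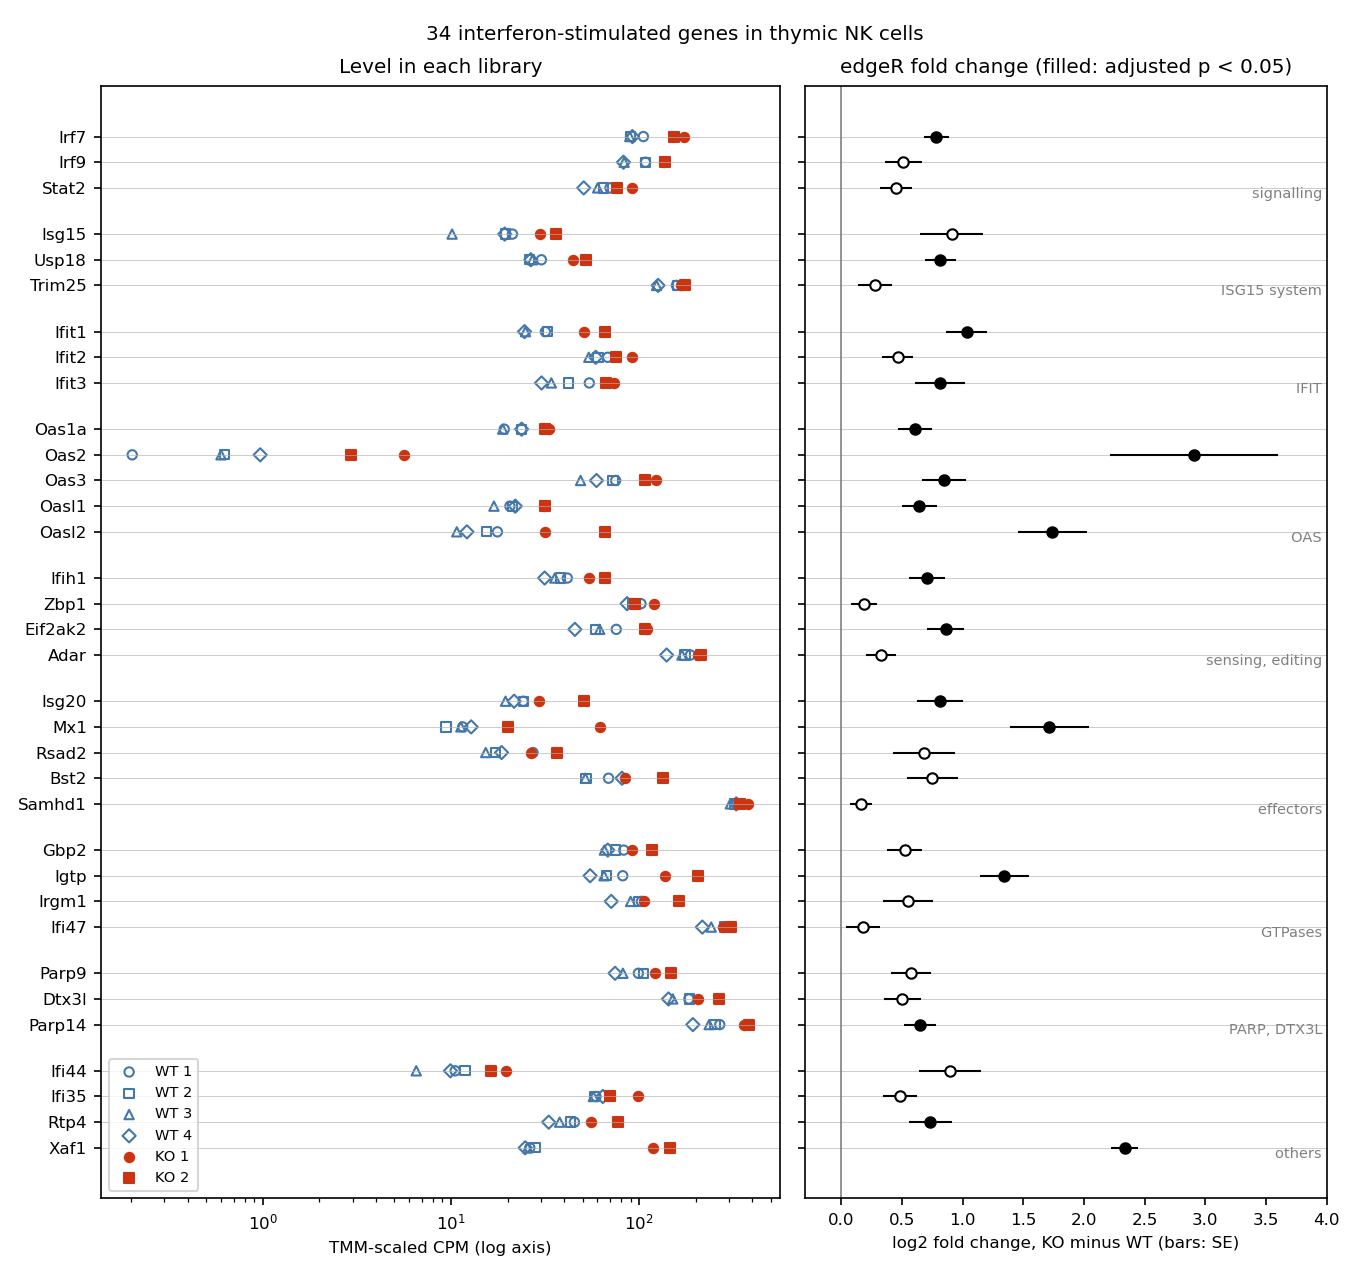
Level of each of the 34 genes in each library (left, TMM-scaled CPM on a log axis, open blue symbols WT, filled red symbols KO) and the fitted log2 fold change with its SE (right, filled where the adjusted p was under 0.05), grouped by role. The 34 fold changes lie between 0.16 and 2.91, all to the right of 0.

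Taken library by library, the set summed to 2899.9, 2734, 2424 and 2347 CPM in WT 1 to WT 4 and to 3739.8 and 4041 CPM in KO 1 and KO 2. Both KO sums were above all 4 WT sums. Each of the 34 genes had its highest level in a KO library, 13 in KO 1 and 21 in KO 2. Among WT libraries the set was not even: WT 1 held the highest WT level of 22 genes, while WT 3 and WT 4 held the lowest level of 15 and 16. Within the libraries labelled male, KO 1 lay above both WT libraries for 32 genes, and within those labelled female KO 2 did so for all 34. Among all tested genes each of these orders held for 41.6%. The median difference in log2(CPM + 1) was 0.55 in the first comparison and 0.76 in the second. In tests across all genes with edgeR, neither the sex term nor the genotype by sex interaction was called for any member or for any other gene. At an unadjusted p under 0.05 the sex term had 0 members and 866 of all genes (6.34%). The interaction had 6 of the 34 members and 1368 of the 13652 tested genes. Each labelled sex has only 1 KO library, so the interaction cannot be told apart from a difference between the single mice KO 1 and KO 2. DESeq2 called 28 genes for sex and 128 for the interaction.

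The number of calls moved with single libraries. The count of called members was 8 without WT 3, 10 without KO 1 and 7 without KO 2, while the share of all tested genes called higher went from 8.13% to 4.96%, 4.58% and 3.90%. Without WT 3 and WT 4 together the count was 10 (7.41% of all tested genes). DESeq2 called 27 members and 11.7% of all tested genes higher, and limma voom 26 members and 11.2%. Scaling by library size alone called 27 members and 9.79% of all tested genes, and moved the median of all tested genes from 0.017 to 0.10. Under every one of these settings all 34 fold changes stayed above 0. Of the 17 members that were not called, 10 were called with DESeq2, with library-size scaling and with no filter on low counts: Bst2, Dtx3l, Gbp2, Ifi35, Ifi44, Ifit2, Irf9, Isg15, Parp9 and Stat2. All of these but Ifi35 were also called with limma voom. Adar, Ifi47, Samhd1, Trim25 and Zbp1 were called under none of the 17 alternatives.

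**Figure D2:**
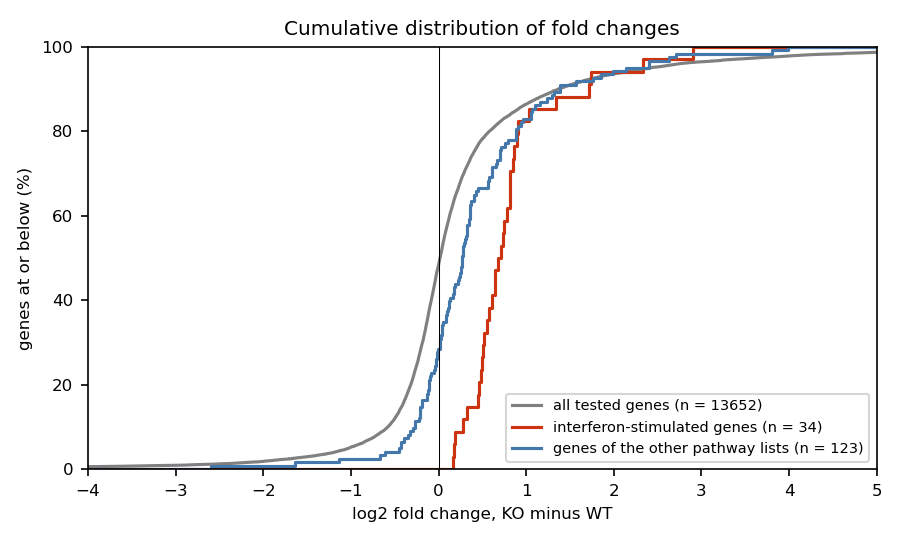
Cumulative share of genes (y axis, percent) at or below a log2 fold change (x axis, KO minus WT) for all 13652 tested genes, the 34 interferon-stimulated genes and 123 tested genes of the other interferon pathway lists. The curve of the 34 genes leaves 0% only to the right of a fold change of 0, while 51.7% of all tested genes lie there.

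Markers of other cells moved in the same libraries, and in bulk RNA a change in the number of cells of a type and a change in RNA per cell cannot be told apart. For comparison with each marker list, 8.13% of all tested genes rose and 5.58% fell. Of 10 B cell markers 7 rose. Their mean log2(CPM + 1) was 1.43 to 2.02 in WT and 4.70 and 2.94 in KO 1 and KO 2, and their sum was 376 to 425 CPM in WT and 581 and 420.1 CPM in KO 1 and KO 2. Most of the sum was Ighm, whose level did not separate the groups. Pax5, which defines the B lineage, was at 5.68 CPM in KO 1 and 1.56 CPM in KO 2, while WT 1 and WT 3 had 0 counts of it. Of 11 tested myeloid markers none rose with edgeR and Cd163 fell. Their mean log2(CPM + 1) was 1.22 to 3.04 in WT and 3.26 and 3.64 in KO 1 and KO 2, and the sum of all 12 was 331 to 483 CPM in WT and 515 and 502 CPM in KO 1 and KO 2. Both KO libraries were above all WT libraries for 7 of the 12 (20.5% of all tested genes), and the median log2 fold change of the tested ones was 3.22. Lyz2, the lysozyme gene, was at 0.0405 to 14.7 CPM in WT and 36.4 and 70.3 CPM in KO. Cd14, a monocyte gene, had 0 counts in 4 of the 6 libraries.

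Plasmacytoid dendritic cells are a strong source of type I interferon. Of their 8 tested markers 2 rose and 2 fell, and the sum of all 9 was 91.4 to 162 CPM in WT and 128 and 259 CPM in KO 1 and KO 2. Siglech, their defining lectin gene, was highest in WT 4 at 24.1 CPM, had 0 counts in WT 1, and was at 2.14 and 6.80 CPM in KO 1 and KO 2. Pacsin1, which rose, was at 6.84 to 15.3 CPM in WT and 39.6 and 99.5 CPM in KO. The 2 that fell were Tcf4 and Cox6a2. Tcf4 was at 62.6 to 81.8 CPM in WT and 29.6 and 39.5 CPM in KO 1 and KO 2. Cox6a2 was at 6.88 to 10.6 CPM in WT and 3.07 and 4.49 CPM in KO 1 and KO 2. Spib, not called, was at 0 to 9.37 CPM and 24.3 and 27.2 CPM. Of 8 conventional dendritic cell markers 2 rose, with sums of 846 to 907 CPM in WT and 853 and 589 CPM in KO 1 and KO 2. Of 12 alpha-beta T cell markers 3 rose and 1 fell, with sums of 504 to 803 CPM in WT and 1027 and 711 CPM in KO 1 and KO 2. Cd28, which fell, and Cd247, not called, were the most abundant of them in WT. Cd4 rose, from 0.162 to 15.6 CPM in WT to 17.7 and 71.6 CPM in KO. Cd8a also rose, from 1.78 to 20.1 CPM in WT to 79.5 and 64.4 CPM in KO. Of the 12 fold changes 9 were above 0 and 3 below, with a median of 1.22. For 7 of the 12 both KO libraries were above all WT libraries and for 2 below (20.5% and 18.8% of all tested genes). Of 7 gamma-delta T cell markers 5 rose, with sums of 219 to 379.9 CPM in WT and 721 and 557 CPM in KO 1 and KO 2. Of 6 immature thymocyte markers 2 rose, with sums of 28.8 to 142 CPM in WT and 51.3 and 525 CPM in KO 1 and KO 2. Of 7 tested epithelial and stromal markers 5 rose, with sums over all 10 of 111 to 119.7 CPM in WT and 278 and 482 CPM in KO 1 and KO 2, most of it Pecam1. Of 4 tested erythroid markers none was called, and their sums were 19.2 to 55.7 CPM in WT and 0.232 and 29.2 CPM in KO 1 and KO 2. Of 10 NK markers 2 fell and none rose, and 8 of the 10 fold changes were below 0. The NK sums were 13360 to 14026 CPM in WT and 13524 and 11748 CPM in KO 1 and KO 2. Gzma, not called, made up a large part of each sum, at 2342 to 3413 CPM in WT and 4268 and 3195 CPM in KO 1 and KO 2. Eomes fell, from 800 to 930 CPM in WT to 295 and 140 CPM in KO 1 and KO 2 (log2 fold change -2.11). Both KO libraries were below all WT libraries for 3 of the 10 NK markers and above them for 1 (18.8% and 20.5% of all tested genes). The part of these cells in the rise of the interferon-stimulated genes was not tested.

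Immediate early and heat shock genes respond to cell handling. Of 12 such genes Fos fell, and the other 11 were not called. All 12 fold changes were below 0, with a median log2 fold change of -2.68. For 7 of the 12 both KO libraries were below all 4 WT libraries, which held for 18.8% of all tested genes. For WT 1 to WT 4 in order the sums of the 12 handling genes were 1034, 1018, 3742 and 6974 CPM, and for the KO libraries 597 and 831 CPM. What this difference means for the interferon-stimulated genes was not tested. WT 3 and WT 4, the highest in these genes, were the libraries in which the interferon-stimulated genes summed lowest. Leaving both out, a choice listed with that difference known, gave a median of 0.58 for the set, with 10 of 34 called against 7.41% of all tested genes called higher.

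**Figure D3:**
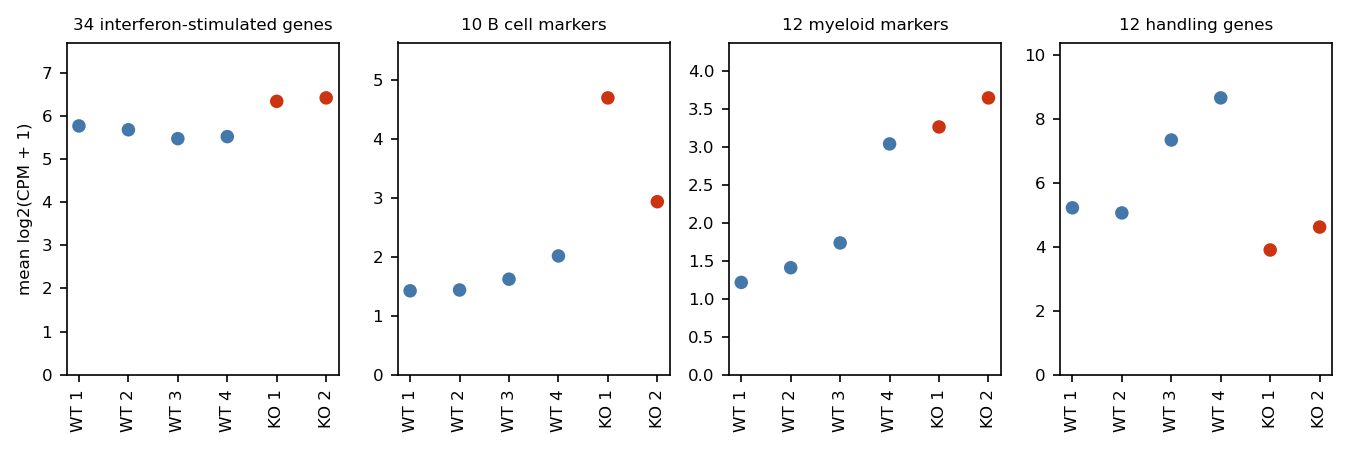
Mean log2(CPM + 1) per library (blue WT, red KO) of the 34 interferon-stimulated genes, 10 B cell markers, 12 myeloid markers and 12 handling genes. The interferon-stimulated genes are at 5.47 to 5.76 in WT and at 6.33 and 6.41 in KO, while the B cell markers are higher in KO 1 than in KO 2.

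The DNA letters of the response elements were counted in the promoters of the set. A window from 250 bases before to 50 bases after a transcription start was available for 27 of the 34 genes (RefSeq, GRCm38.p6, the same build as mm10). There were 33 windows for the 27 genes, as some have more than 1 start. The ISRE-like motif, spelled GAAA, NN and GAAA without a gap (N for any base) and searched on both strands, lay in a window of 13 of these 27 genes (48.1%) and of 3.86% of the 10367 tested genes with a window. It was found for 7 of the 12 called genes with a window and for 6 of the 15 that were not called. The GAS-like motif TTCNNNGAA was found for 9 of 27 (33.3%) against 8.28% of tested genes. The TCF-like motif CTTTGAT was found for 0 of 27 against 3.01%. Of the 20 ISRE-like matches 1 overlapped a GAS-like match. A match describes letters in these windows only, and no binding was measured.

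Stretches of 60 bases that end at or before a transcription start show the ISRE-like letters. Such a stretch was found for 11 members, 5 called (Ifit1, Ifit3, Oas1a, Oas3 and Igtp) and 6 not called, and 10 are shown so that called and uncalled genes can be compared. The one not shown, of the uncalled Bst2, has 2 matches that share bases. In the called Eif2ak2 and Ifih1 the match lies after the start. Each is written 5′ to 3′ on the strand of the gene, with ISRE-like matches in capitals.
Isg15: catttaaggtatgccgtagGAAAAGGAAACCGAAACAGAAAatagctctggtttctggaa
Ifit1: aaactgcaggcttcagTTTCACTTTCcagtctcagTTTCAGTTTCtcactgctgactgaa
Ifit3: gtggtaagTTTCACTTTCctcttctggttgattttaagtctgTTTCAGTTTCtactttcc
Oas1a: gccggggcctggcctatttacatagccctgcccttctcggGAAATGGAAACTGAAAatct
Oas3: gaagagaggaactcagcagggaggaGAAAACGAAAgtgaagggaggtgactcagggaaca
Igtp: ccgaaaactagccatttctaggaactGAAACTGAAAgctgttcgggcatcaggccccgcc
Irgm1: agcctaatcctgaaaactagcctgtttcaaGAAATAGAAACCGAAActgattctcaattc
Gbp2: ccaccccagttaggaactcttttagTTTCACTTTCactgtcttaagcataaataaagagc
Rsad2: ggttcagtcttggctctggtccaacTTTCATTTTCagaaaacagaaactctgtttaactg
Stat2: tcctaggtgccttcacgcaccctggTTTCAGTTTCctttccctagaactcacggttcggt
The stretches lie at chr4:156200856-156200915 (minus strand) for Isg15, chr19:34640769-34640828 (plus) for Ifit1, chr19:34583365-34583424 (plus) for Ifit3, chr5:120907526-120907585 (minus) for Oas1a, chr5:120777700-120777759 (minus) for Oas3, chr11:58199496-58199555 (plus) for Igtp, chr11:48871421-48871480 (minus) for Irgm1, chr3:142620579-142620638 (plus) for Gbp2, chr12:26456538-26456597 (minus) for Rsad2 and chr10:128270251-128270310 (plus) for Stat2. Isg15 has 3 matches in a row that share bases, Oas1a and Irgm1 have 2 that share bases, and Ifit1 and Ifit3 have 2 that lie apart. Igtp, Oas3, Gbp2, Rsad2 and Stat2 have 1 match each, and Igtp also has a GAS-like match to the 5′ side of it. Called and uncalled genes both include stretches with 1 match and stretches with 2. The stretch of Ifit3 lies inside the annotated gene, which begins at 34583119, and that of Oas1a overlaps its gene, which ends at 120907544. Each of these 2 stretches precedes a start that lies inside the gene.

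The transcription factors of the pathway are described first. Irf7 (chromosome 7, 141263183 to 141266499), which amplifies type I interferon production, was at 105, 90.0, 89.1 and 92.0 CPM in WT 1 to WT 4 and 172 and 152 CPM in KO 1 and KO 2. Irf7 rose (log2 fold change 0.78, SE 0.11, adjusted p = 0.00414), and its groups were well apart. This was 1 of 3 members called under all 17 alternative settings. Irf9, the DNA-binding subunit of the complex it forms with STAT2, was at 108, 108, 83.2 and 82.5 CPM in WT 1 to WT 4 and 136 and 136 CPM in KO 1 and KO 2, without overlap and not called (log2 fold change 0.51, SE 0.15, adjusted p = 0.0627). Stat2, its partner, was at 70.0, 64.4, 60.2 and 50.7 CPM in WT 1 to WT 4 and 91.8 and 76.6 CPM in KO 1 and KO 2 and was not called (log2 fold change 0.45, SE 0.13, adjusted p = 0.0607). Stat2 passed without WT 2 (adjusted p = 0.0460). WT 3 and WT 4 held the lowest level of each of the 2 genes that were not called, and the log2 fold change of Irf9 was 0.34 with both left out.

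In the ISG15 system, the ubiquitin-like modifier, its remover and a ligase were listed. Usp18, the protease that takes ISG15 off proteins and blocks IFNAR2 signalling, was at 30.2, 26.1, 27.1 and 26.6 CPM in WT 1 to WT 4 and 44.5 and 52.3 CPM in KO 1 and KO 2. The level rose (log2 fold change 0.82, SE 0.13, adjusted p = 0.00774). The call was lost once KO 2 was left out (adjusted p = 0.0730). Isg15 itself was at 21.2, 19.5, 10.1 and 19.3 CPM in WT 1 to WT 4 and 29.8 and 36.1 CPM in KO 1 and KO 2, with WT 3 low among WT, and was not called (log2 fold change 0.91, SE 0.26, adjusted p = 0.0570). It passed without WT 1 (log2 fold change 1.17, adjusted p = 0.0240). Trim25, a ligase gene for ubiquitin and ISG15 whose protein activates the RNA sensor RIG-I, was at 158, 159, 124 and 126 CPM in WT 1 to WT 4 and 167 and 176 CPM in KO 1 and KO 2. The groups of Trim25 did not overlap but KO 1 lay just above WT 2, and the gene was not called (log2 fold change 0.27, SE 0.14, adjusted p = 0.242).

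IFIT proteins bind foreign RNA ends and translation factors. Ifit1 was at 31.7, 32.5, 24.9 and 24.6 CPM in WT 1 to WT 4 and 51.0 and 66.0 CPM in KO 1 and KO 2. It rose (log2 fold change 1.03, SE 0.17, adjusted p = 0.00820) with both KO libraries clear of WT, and lost its call once KO 2 was left out (adjusted p = 0.0845). Ifit3, which stabilises IFIT1, was at 54.3, 42.1, 34.1 and 30.3 CPM in WT 1 to WT 4 and 73.7 and 67.0 CPM in KO 1 and KO 2. Both KO libraries were high, while WT spread from WT 4 up to WT 1. Ifit3 rose (log2 fold change 0.81, SE 0.20, adjusted p = 0.0391) and lost the call once any 1 of WT 3, KO 1 and KO 2 was left out (adjusted p 0.0883 to 0.190) and without WT 3 and WT 4 together (adjusted p = 0.0578). Ifit2 was at 68.0, 60.5, 54.0 and 58.7 CPM in WT 1 to WT 4 and 92.1 and 75.0 CPM in KO 1 and KO 2, did not overlap, and was not called (log2 fold change 0.46, SE 0.13, adjusted p = 0.0541). The near copies Ifit1bl1 and Ifit3b, which are not members, had log2 fold changes of 1.23 (adjusted p = 0.0294) and 1.29 (adjusted p = 0.0625). Reads of such copies can be split or dropped in counting, so the levels of Ifit1 and Ifit3 are uncertain to that extent.

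The oligoadenylate synthetase (OAS) family was the one role group in which every member, 5 of 5, rose. The enzymatically active members of the family sense double-stranded RNA and make the messenger that switches on RNase L. Oas3, the member for long RNA, was at 75.0, 72.4, 48.8 and 59.3 CPM in WT 1 to WT 4 and 123 and 107 CPM in KO 1 and KO 2 (log2 fold change 0.85, SE 0.18, adjusted p = 0.0231). Oasl2 (chromosome 5, 114896926 to 114912245), an OAS-like gene, was at 17.7, 15.5, 10.7 and 12.2 CPM in WT 1 to WT 4 and 31.8 and 65.7 CPM in KO 1 and KO 2 (log2 fold change 1.74, SE 0.29, adjusted p = 0.00844). KO 2 was far above KO 1, and without KO 2 the log2 fold change was 1.15 and the call was lost (adjusted p = 0.0845). Oas2 was near the limit of detection, at 0.202, 0.626, 0.600 and 0.969 CPM in WT 1 to WT 4 and 5.62 and 2.93 CPM in KO 1 and KO 2, with 5 counts in WT 1 and 97 in KO 1 (log2 fold change 2.91, SE 0.69, adjusted p = 0.0327). It had the largest fold change of the set and one of the weakest bases, since the call was lost once any 1 of WT 1, WT 2, WT 3 and KO 1 was left out (adjusted p 0.0668 to 0.311), and the log2 fold change was 1.87 without KO 1. Oas1a, a synthetase of the OAS1 family, and Oasl1, which restrains IRF7 translation, had log2 fold changes of 0.61 and 0.64. Oas1a was at 18.8 to 23.7 CPM in WT and 33.2 and 31.5 CPM in KO (adjusted p = 0.0313). Oasl1 was at 16.9 to 22.0 and 31.4 and 31.5 CPM (adjusted p = 0.0276). Both groups stayed apart in both genes, yet Oas1a lost its call once any 1 of WT 1, WT 2, WT 3 and KO 1 was left out (adjusted p 0.0664 to 0.235) and Oasl1 once any 1 of WT 1, WT 2, WT 3, KO 1 and KO 2 was left out (adjusted p 0.0621 to 0.174). The log2 fold change of Oas1a was 0.40 without KO 1. Without WT 3 and WT 4 together Oas1a, Oas2 and Oasl1 were not called either (adjusted p = 0.118, 0.0569 and 0.108), and Oas3 lost its call once KO 1 or KO 2 was left out (adjusted p 0.0762 to 0.176). Oas1a has close paralogs in tandem, so its share of their reads is uncertain.

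Of 4 genes of RNA and DNA sensing, editing and translation block, 2 rose. Eif2ak2 encodes PKR, the kinase that stops translation on double-stranded RNA, and was at 75.5, 58.8, 61.7 and 45.5 CPM in WT 1 to WT 4 and 110.3 and 107 CPM in KO 1 and KO 2. The level rose (log2 fold change 0.86, SE 0.15, adjusted p = 0.0112) and lost its call once KO 2 was left out (adjusted p = 0.105). Ifih1, the gene of the RNA sensor MDA5, was at 41.5, 38.1, 35.6 and 31.4 CPM in WT 1 to WT 4 and 54.1 and 65.7 CPM in KO 1 and KO 2. It rose (log2 fold change 0.71, SE 0.15, adjusted p = 0.0211) but lost its call once WT 3 or KO 2 was left out (adjusted p 0.0720 to 0.169) and without WT 3 and WT 4 together (adjusted p = 0.0671). Adar, the RNA editing enzyme that masks the cell's own RNA from MDA5, was at 187, 175, 169 and 139.9 CPM in WT 1 to WT 4 and 206 and 213 CPM in KO 1 and KO 2 and was not called (log2 fold change 0.33, SE 0.13, adjusted p = 0.133). Zbp1, a sensor of Z-form nucleic acid that triggers cell death, was at 102, 92.2, 96.2 and 86.2 CPM in WT 1 to WT 4 and 121 and 95.2 CPM in KO 1 and KO 2. KO 2 fell inside the WT range of Zbp1, and the gene was not called (log2 fold change 0.19, SE 0.10, adjusted p = 0.278).

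Among 5 other direct effectors 2 rose. Mx1 (chromosome 16, 97447035 to 97462906), a dynamin-like antiviral GTPase gene whose protein is defective in C57BL/6 mice, was at 11.5, 9.39, 11.3 and 12.8 CPM in WT 1 to WT 4 and 61.5 and 20.2 CPM in KO 1 and KO 2. The WT libraries were close together, and KO 1 was far above KO 2. Mx1 rose (log2 fold change 1.71, SE 0.33, adjusted p = 0.0154), and the log2 fold change was 0.86 without KO 1. Its call was lost once any 1 of WT 1, WT 3 and KO 1 was left out (adjusted p 0.0648 to 0.105). Isg20, an exonuclease gene, was at 24.2, 24.2, 19.5 and 21.6 CPM in WT 1 to WT 4 and 29.4 and 51.2 CPM in KO 1 and KO 2. The level rose (log2 fold change 0.81, SE 0.19, adjusted p = 0.0321) with KO 2 alone well above WT, had a log2 fold change of 0.42 without KO 2, and lost its call once any 1 of WT 2, WT 3, WT 4 and KO 2 was left out (adjusted p 0.0539 to 0.254) and without WT 3 and WT 4 together (adjusted p = 0.109). Bst2, the gene of tetherin, which holds budding virions at the cell surface, was at 68.7, 52.1, 51.8 and 81.1 CPM in WT 1 to WT 4 and 83.8 and 134 CPM in KO 1 and KO 2. KO 1 lay just above WT 4, and Bst2 was not called (log2 fold change 0.75, SE 0.21, adjusted p = 0.0567). Bst2 passed without WT 4 (adjusted p = 0.0385). Rsad2, which encodes viperin, was at 27.3, 17.3, 15.3 and 18.6 CPM in WT 1 to WT 4 and 26.5 and 36.4 CPM in KO 1 and KO 2. WT 1 lay above KO 1, and Rsad2 was not called (log2 fold change 0.68, SE 0.26, adjusted p = 0.124). It passed without WT 1 (log2 fold change 0.93, adjusted p = 0.0242). Samhd1, the dNTP hydrolase gene, was at 331, 322, 305 and 328 CPM in WT 1 to WT 4 and 376 and 343 CPM in KO 1 and KO 2, with a fold change of 0.16 (adjusted p = 0.287), the smallest of the set.

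The interferon-inducible GTPases act on vacuoles of intracellular parasites and bacteria and respond to interferon gamma. Igtp (chromosome 11, 58199556 to 58207592), which encodes IRGM3, was at 81.8, 67.3, 65.0 and 54.9 CPM in WT 1 to WT 4 and 138 and 204 CPM in KO 1 and KO 2. It rose (log2 fold change 1.34, SE 0.20, adjusted p = 0.00610) and was called under all 17 alternative settings, although the log2 fold change ranged from 0.90 without KO 2 to 1.73 without KO 1. Gbp2, a guanylate-binding protein gene, was at 82.8, 74.6, 65.3 and 68.1 CPM in WT 1 to WT 4 and 92.0 and 118 CPM in KO 1 and KO 2 and was not called (log2 fold change 0.52, SE 0.14, adjusted p = 0.0529). Gbp2 passed without WT 1 (adjusted p = 0.0361). Irgm1, a regulator of the other IRG proteins, was at 103, 99.4, 90.0 and 71.1 CPM in WT 1 to WT 4 and 106 and 162 CPM in KO 1 and KO 2. KO 1 was just above WT 1 while KO 2 was clearly higher, and Irgm1 was not called (log2 fold change 0.55, SE 0.21, adjusted p = 0.121). Its log2 fold change was 0.13 without KO 2. Ifi47, the gene of the GTPase IRG-47, was at 293, 284, 241 and 217 CPM in WT 1 to WT 4 and 277 and 308 CPM in KO 1 and KO 2 and overlapped (log2 fold change 0.18, SE 0.14, adjusted p = 0.452). Igtp shares 162 exon bases on the same strand with Irgm2, and Ifi47 shares 111 with Olfr56 (GENCODE M21), so some reads may belong to either gene.

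PARP9 and DTX3L form a ubiquitin ligase complex that strengthens interferon signalling, and PARP14 is a relative of PARP9. Parp14 was at 268, 253, 235 and 193 CPM in WT 1 to WT 4 and 359 and 382 CPM in KO 1 and KO 2. Parp14 rose (log2 fold change 0.65, SE 0.13, adjusted p = 0.0208), and lost the call once any 1 of WT 3, KO 1 and KO 2 was left out (adjusted p 0.0620 to 0.161). Parp9 was at 99.0, 105, 81.9 and 74.4 CPM in WT 1 to WT 4 and 121 and 148 CPM in KO 1 and KO 2 and was not called (log2 fold change 0.57, SE 0.16, adjusted p = 0.0599). Parp9 passed without WT 4 (log2 fold change 0.45, adjusted p = 0.0475). Dtx3l was at 184, 185, 151 and 143 CPM in WT 1 to WT 4 and 205 and 267 CPM in KO 1 and KO 2 and was not called (log2 fold change 0.50, SE 0.15, adjusted p = 0.0721). The 2 partner genes had nearly equal fold changes and did not overlap between groups. They lie on opposite strands and share 458 exon bases (GENCODE M21), so part of their reads cannot be told apart in libraries without strand. The same holds for Adar and Chrnb2, which share 1365 exon bases on opposite strands. Irf9 and Rnf31 share 123 exon bases and Rtp4 and Gm45338 share 296, in both cases on the same strand. Some of their reads may belong to either gene, whether or not strand is marked.

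Xaf1 stood out among the remaining 4 members. It encodes a partner of the apoptosis inhibitor XIAP (chromosome 11, 72301461 to 72313733) and was at 26.2, 28.0, 25.6 and 24.8 CPM in WT 1 to WT 4 and 118 and 146 CPM in KO 1 and KO 2. The WT values lay within 24.8 to 28.0 CPM, and both KO libraries were far above them. Xaf1 rose from 26.1 ± 1.35 CPM (SD, n = 4) to 132 ± 19.6 CPM (SD, n = 2), with the smallest adjusted p of the set (edgeR, log2 fold change 2.33, SE 0.11, adjusted p = 1.29e-04). The log2 fold change stayed between 2.19 and 2.46 over all settings. Rtp4, which encodes a receptor transporter protein that restrains the interferon response, was at 45.3, 43.0, 37.8 and 33.1 CPM in WT 1 to WT 4 and 55.5 and 77.5 CPM in KO 1 and KO 2. The level rose (log2 fold change 0.73, SE 0.18, adjusted p = 0.0345), with a log2 fold change of 0.41 without KO 2, and lost its call once any 1 of WT 2, WT 3 and KO 2 was left out (adjusted p 0.0640 to 0.266) and without WT 3 and WT 4 together (adjusted p = 0.0862). Ifi44 was at 10.5, 11.9, 6.54 and 9.93 CPM in WT 1 to WT 4 and 19.7 and 16.2 CPM in KO 1 and KO 2, without overlap and not called (log2 fold change 0.89, SE 0.25, adjusted p = 0.0569). Ifi35, which encodes a partner of NMI, was at 58.9, 57.7, 57.1 and 64.1 CPM in WT 1 to WT 4 and 98.0 and 69.8 CPM in KO 1 and KO 2 and was not called (log2 fold change 0.48, SE 0.14, adjusted p = 0.0642). It passed without WT 4 or KO 2 (adjusted p = 0.0356 and 0.0304).

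Per kilobase of gene length, the members differed widely in WT cells. Ifi47 was highest at 155 CPM per kilobase, then Bst2 at 82.5 and Samhd1 at 80.2. Oas2 was lowest at 0.155 CPM per kilobase, followed by Ifi44 at 3.34, Mx1 at 4.17 and Oasl2 at 4.47. In KO cells Xaf1 went from 10.1 to 50.9 CPM per kilobase. The genes with the lower WT level had the larger fold changes: over the 34 members Spearman's rho between log2 WT level per kilobase and log2 fold change was -0.59 and Pearson's r -0.73. The WT libraries enter both measures, genes are not independent replicates, and Oas2 lies far from the others.

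The pathway around the set was read from lists of genes that are not members. Of 145 such genes 123 were tested, of which 31 rose and 3 fell (8.13% and 5.58% of all tested genes did), with a median log2 fold change of 0.27. Of the ligands, Ifng alone was tested, among 21 interferon genes. It had 63.3 to 191 CPM in WT and 99.2 and 49.1 CPM in KO and was not called (log2 fold change -0.61, SE 0.50, adjusted p = 0.466). WT 3 and WT 4 were its highest libraries, and the sign of its change turned without KO 2 and without WT 3 and WT 4 (log2 fold changes 0.041 and 0.058). Of the other 20 ligand genes, 18 had 0 counts in all 6 libraries, Ifnb1 and all listed Ifna genes included. At these depths a count of 0 allows up to 0.0963 to 0.183 CPM per library (3 counts, counting error only). Ifnk had 6 counts in WT 4 and Ifnz 4 counts in KO 2.

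Receptor and kinase genes went in both directions, with 2 of 9 tested risen and 2 fallen. Jak1, the kinase shared by type I and type II interferon receptors and by the interleukin-2 receptor, was at 2812, 2735, 2646 and 2477 CPM in WT 1 to WT 4 and 1298 and 1129 CPM in KO 1 and KO 2. It fell (log2 fold change -1.14, SE 0.084, adjusted p = 4.35e-04). Every KO library of Jak1 was below every WT library. The other gene that fell was Il10rb, a chain of the interferon lambda receptor (log2 fold change -0.43), named after its values were seen. Ifngr2, the signalling chain of the interferon gamma receptor, was at 0.162, 0.494, 0.180 and 2.38 CPM in WT 1 to WT 4 and 5.10 and 14.3 CPM in KO 1 and KO 2. Ifngr2 rose (log2 fold change 3.98, SE 0.65, adjusted p = 0.00811) from a level near the floor of detection in 3 of 4 WT libraries, and lost the call once KO 1 was left out (adjusted p = 0.0534). The binding chain Ifngr1 and the type I chains Ifnar1 and Ifnar2 had log2 fold changes of 0.035, -0.038 and 0.016 and were not called; they were chosen after their values were seen.

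Among negative regulators 3 of 12 rose and none fell. Cish, a STAT5 target that restrains interleukin signalling, was at 24.8, 28.3, 29.7 and 28.6 CPM in WT 1 to WT 4 and 144 and 226 CPM in KO 1 and KO 2 (log2 fold change 2.71, SE 0.15, adjusted p = 1.59e-04). Socs1, which inhibits JAK kinases downstream of interferon, rose from 76.1 ± 12.5 to 141 ± 27.2 CPM (log2 fold change 0.89). Socs1 lost its call once WT 1 or KO 2 was left out (adjusted p 0.0621 to 0.171), with a log2 fold change of 0.56 without KO 2. Trex1, a DNA exonuclease gene, had a log2 fold change of 0.61, or 0.39 without KO 1. Trex1 lost its call once any 1 of WT 1, WT 2, WT 3, KO 1 and KO 2 was left out (adjusted p 0.0509 to 0.284), without WT 3 and WT 4 together (0.133) and with no sex term (0.144). Of 16 nucleic acid sensors and adaptors 2 rose. Dhx58, the gene of the RNA sensor LGP2, was at 31.4, 26.2, 22.6 and 23.5 CPM in WT 1 to WT 4 and 55.2 and 45.2 CPM in KO 1 and KO 2 (log2 fold change 0.95, SE 0.16, adjusted p = 0.00844). Nlrc5, the activator of class I genes, was at 177, 159, 219 and 153 CPM in WT 1 to WT 4 and 372 and 217 CPM in KO 1 and KO 2 (log2 fold change 0.70, SE 0.13, adjusted p = 0.0158), where KO 2 lay below WT 3. Both lost their calls without KO 1 (adjusted p = 0.0756 and 0.158), Nlrc5 with a log2 fold change of 0.47, and Nlrc5 also with no sex term (0.0634). Of 10 further IRF and IRF-binding genes Irf5 alone rose (34.6 ± 4.62 to 72.9 ± 27.4 CPM, log2 fold change 1.06, and 0.53 without KO 2). Irf5 lost its call once any 1 of WT 1, WT 2 and KO 2 was left out (adjusted p 0.0521 to 0.141). Irf8, the most expressed of them, was not called (log2 fold change -0.0087, SE 0.19, adjusted p = 0.981).

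**Figure D4:**
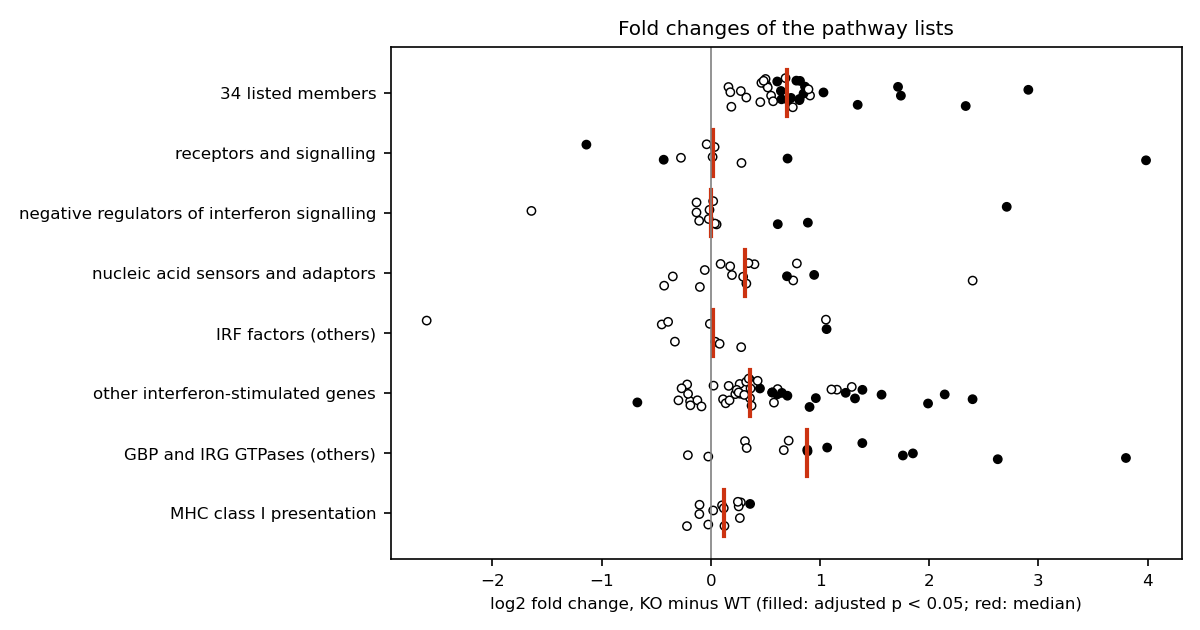
Log2 fold changes (x axis, KO minus WT) of the 34 members and of 7 pathway lists, 1 point per tested gene, filled where the adjusted p was under 0.05, with the median as a red line. Medians are 0.70 for the members, 0.88 for the other GBP and IRG GTPases and 0.12 for class I presentation.

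Further induced genes moved with the members. Of 14 tested guanylate-binding protein and IRG genes outside the list 8 rose and none fell, with a median log2 fold change of 0.88. Iigp1, which encodes the GTPase IRGA6, was at 4.61, 3.79, 4.68 and 2.99 CPM in WT 1 to WT 4 and 37.9 and 75.1 CPM in KO 1 and KO 2 (log2 fold change 3.80, SE 0.30, adjusted p = 5.18e-04). Gbp10 was at 2.96, 2.21, 2.94 and 2.10 CPM in WT 1 to WT 4 and 15.9 and 15.2 CPM in KO 1 and KO 2 (log2 fold change 2.63, SE 0.23, adjusted p = 7.70e-04), and Tgtp1 at 16.2, 19.8, 15.8 and 11.5 CPM in WT 1 to WT 4 and 46.2 and 69.6 CPM in KO 1 and KO 2 (log2 fold change 1.85, SE 0.23, adjusted p = 0.00284). Both KO libraries were above all WT libraries for each of the 3, and no library was needed for their calls. GBP, TGTP and IRG genes lie in clusters of close copies, so how reads fell to each copy is uncertain.

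Of 48 other interferon-stimulated genes 14 rose and 1 fell, with a median log2 fold change of 0.36. Ifi27l2a was at 5.22, 8.80, 4.80 and 8.07 CPM in WT 1 to WT 4 and 38.3 and 29.9 CPM in KO 1 and KO 2 (log2 fold change 2.40, SE 0.25, adjusted p = 0.00149). Ube2l6, the conjugating enzyme for ISG15, was at 1.66, 1.35, 1.44 and 2.26 CPM in WT 1 to WT 4 and 3.01 and 14.7 CPM in KO 1 and KO 2 (log2 fold change 2.14, SE 0.52, adjusted p = 0.0343). Only KO 2 of Ube2l6 was far above WT, the log2 fold change was 0.95 without KO 2, and the call was lost once any 1 of WT 1, WT 2, WT 3, WT 4 and KO 2 was left out (adjusted p 0.0598 to 0.397) and without WT 3 and WT 4 together (0.0901). Mx2 rose from 1.78 ± 1.26 to 6.91 ± 2.52 CPM (log2 fold change 1.99) and lost its call once any 1 of WT 1, WT 2, WT 4, KO 1 and KO 2 was left out (adjusted p 0.0563 to 0.173) and with no sex term (0.0520). The 1 gene that fell was Ms4a4b (log2 fold change -0.67), named after its values were seen. Class I presentation genes, also targets of interferon, were mostly not called: of 13, Tap1 alone rose (306, 288, 271 and 266 CPM in WT 1 to WT 4 and 368 and 358 CPM in KO 1 and KO 2, log2 fold change 0.36, SE 0.095, adjusted p = 0.0452). Tap1 lost its call once any 1 of WT 1, WT 2, WT 3, WT 4, KO 1 and KO 2 was left out (adjusted p 0.0594 to 0.195) and without WT 3 and WT 4 together (0.154). B2m, the class I light chain gene and the most expressed of that list, was at 3797 to 4541 CPM in WT and 3416 and 4298 CPM in KO and was not called (log2 fold change -0.10, SE 0.089, adjusted p = 0.486).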

How the data were processed

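The authors deposited whole-number read counts for each Entrez gene, without scaling, in 1 column per mouse. Per the submitters' processing notes featureCounts and mm10 were used, and the aligner is not given in the sources used here. Per the labels' protocols the SMART-Seq v4 kit was used, which amplifies full-length cDNA from few cells and does not mark strand, so counts are not independent molecules and overlapping genes cannot be separated. The deposited table also gives gene lengths, used here for levels per kilobase. The 6 single-sample files held the same counts, and 0 columns belonged to other samples. Symbols came from RefSeq (GRCm38.p6), with 25275 of 26332 gene IDs matched.

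Counts were fitted with edgeR 4.0.16 (R 4.3.3): TMM, filterByExpr, glmQLFit and glmQLFTest with genotype and sex, 3 residual degrees of freedom, Benjamini-Hochberg adjustment over 13652 genes. Alternatives were other scalings and filters, no sex term, a replicate block, DESeq2 1.42.0, limma voom (limma 3.58.1), robust quasi-likelihood, and libraries left out. The scripts were tested on simulated counts. No 2 libraries of a group agreed within sampling noise (the chi-square divided by its degrees of freedom was at least 8.86), so none was merged.

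Members and lists were chosen with earlier results of these data known. By the rule for names, all members were accounted for, with library values for up to 3 called genes per role and for uncalled genes without overlap. From each pathway list up to 3 called genes with the largest change were named, or, with fewer than 2 called, also the most expressed. Some genes that the rule names are not reported here. Precision: 3 counts are 0.0963 to 0.183 CPM.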

Additional observations from a re-analysis of the deposited data

Results flagged for a closer look

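In 3 genes of the pathway lists 1 WT library stood far from the other 3. Irf8 was at 511 CPM in WT 4 against 353 to 356 CPM in the others. Ifngr2 was at 2.38 CPM in WT 4 against at most 0.494 CPM. Mx2 was at 3.66 CPM in WT 3 against at most 1.29 CPM. In each the gap to the nearest library, as a share of the range over the 4 WT libraries, was above Dixon's 95% critical value. Chance alone marks about 1 group in 20, and 55 groups were examined, the 34 members, their sum, 19 pathway genes and Tcf7. No member was marked.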

How the results depend on the processing

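The median fold change of the set lay between 0.55 and 0.81 over all settings, and no tested member changed sign (33 of 34 were tested with the filter of 5 CPM in 2 libraries). The count of called members (17) was 27 with library-size scaling, 28 with no filter, 27 with DESeq2, 26 with limma voom, 10 with the replicate block and 10 without WT 3 and WT 4, and 7 to 19 with 1 library left out. Irf7, Igtp and Xaf1 were called throughout. The replicate block and leaving out WT 3 and WT 4 compare the same libraries, so they are not separate checks. All genes called (1872) were 2955 with DESeq2 and 934 to 1908 with 1 library left out. With library-size scaling 71.9% of calls were higher (1336 higher, 523 lower), against 59.3% (1110 and 762) with TMM. Pathway genes called higher (31) were 16 to 27 with 1 library left out. Those called lower (3) were 5 with no filter, 1 with no sex term, 7 with DESeq2 and 1 to 6 with 1 library left out. Sex called 0 genes, 15 with no filter, 28 with DESeq2 and 0 to 4 with 1 library left out. The interaction called 0, 91 with no filter and 128 with DESeq2. The cause of these shifts was not tested.

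Ifng, not called, changed sign with the replicate block (0.056) and without WT 3 and WT 4 (0.058), and ranged from -1.38 to 0.041 with 1 library left out. Irf8, not called, did so with upper-quartile (0.0057) and library-size scaling (0.075), the filter of 5 CPM in 2 libraries (0.020), the replicate block (0.12) and without WT 3 and WT 4 (0.12), and ranged from -0.37 to 0.31 with 1 library left out. B2m ranged from -0.22 to 0.0016.

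Replicate numbers 1 and 2 occur in both groups, and same-numbered libraries also share the labelled sex. Their deviations from the group means correlated at 0.13 for number 1 and -0.05 for number 2. With 2 KO libraries the KO deviations mirror each other, so these correlations cannot settle whether the libraries were paired. With that block 10 of the 17 calls of members were kept. WT 3 and WT 4 have no KO library of the same number, so under the block they add nothing to the fitted genotype difference. The block thus makes nearly the same comparison as leaving out WT 3 and WT 4, and it does not test the pairing. With 1 KO library left out, the spread of the other was taken from the WT libraries. Depth limits Oas2 most, with 5 counts in WT 1.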
